A study of Homo sapiens with 2 samples.

Results

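The amino acid transporters of the SLC1, SLC3, SLC6, SLC7, SLC36, SLC38 and SLC43 families were described in T47D, an established line of human luminal breast cancer cells that express the oestrogen receptor. Members were taken by gene symbol alone, as every named feature (1 transcript accession on the array) whose symbol belongs to one of these families. This gave 38 features of 37 genes, out of 28973 features and 11564 named genes on the arrays. The current RefSeq gene table holds 61 protein-coding genes with such symbols, and the other 24 had no named value and are not analysed here. In the group called NC the cells had received a control lentivirus, and in the group called shTRPS1 a lentivirus coding for a hairpin RNA that targets TRPS1, so both groups carry a lentivirus. RNA of each group was read on 1 one-colour microarray. With 1 array per group there was no replicate and no test: every difference below compares these 2 arrays, with the number of arrays limiting the precision, and the labels do not say whether the cells of a group were a clone or a pool.

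Amino acid transporters bring nutrients into the cell, exchange one amino acid for another, or release them from lysosomes. Light chains of the SLC7 family work as heterodimers: the light chain forms the transport path, and a heavy chain of the SLC3 family carries it to the plasma membrane. Sodium-coupled carriers such as SLC38A1 accumulate glutamine and other small neutral amino acids, which exchangers such as SLC7A5 can trade for leucine. In breast cancer SLC7A5 and SLC1A5 are known for supplying amino acids to growing cells, and SLC38A9 for reporting lysosomal arginine to the growth kinase complex mTORC1.

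The values were intensities in arbitrary units, and a difference is always the log2 intensity of shTRPS1 minus that of NC, so 1 is 2-fold higher. The background level came from the 60 features of olfactory receptor genes, as their 95th percentile on each array, and was 397 in NC and 325 in shTRPS1. A gene was counted as higher or lower when its difference reached 1 and at least 1 array was above its background level. The 2 arrays correlated at r = 0.961 over all features, and the median difference over all named genes was 0.05. TRPS1, the targeted gene and a GATA-type transcriptional repressor, read 726 in NC and 603 in shTRPS1, a difference of -0.27. That is well inside the central 95% of genes with similar signal, so each direction given here depends on the shTRPS1 label being right. Of 10 luminal epithelial markers, 9 were above background on both arrays, with summed intensities of 125615 and 125325. The basal epithelial markers summed to 10354 in NC and 17383 in shTRPS1 over 4 of 5 measured genes, with KRT14 and KRT17 higher and KRT5 and ACTA2 at -0.27 and -0.33. COL1A1, the 1 fibroblast marker measured of 6, read 363 and 773, the first not above background. CD14, a leukocyte marker, and CDH5, the endothelial marker measured of 3, were not above background on either array. The part of these markers in the transporter results was not tested.

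Of the 37 genes, 17 were above background on at least 1 array and 20 on neither. Intensities were higher in shTRPS1 for 5 members by at least 2-fold, and for 0 were they lower by as much. The 5 were SLC7A8, SLC7A7, SLC43A1, SLC43A3 and SLC38A1. Among all 6949 genes above background on at least 1 array, 3.78% were higher and 2.37% lower by the same rule. SLC7A7, SLC43A1 and SLC43A3 passed the filter only through their shTRPS1 value, which is where they are high, so the count of 5 is a description and nothing is read from it. With both arrays above background there were 11 members, of which 2, SLC7A8 and SLC38A1, were higher and 0 lower, against 1.39% higher and 1.32% lower of 5829 genes. With no filter, 5 of 37 members were higher by 2-fold or more and 3 lower by as much, against 4.71% and 3.8% of 11564 genes. The median over all 37 members was 0.06, close to the 0.05 over all genes, with 21 positive and 16 negative differences. Single differences ran from -1.37 to 2.32 with an SD of 0.79, against 0.58 over all genes and 0.65 over the other solute carriers. These SDs are not matched for signal. Below background on both arrays were 20 of 37 members, against 4615 of 11564 genes, and dim genes spread more. Genes with a mean log2 intensity of 7 to 8 had an SD of 0.74, and those of 10 to 11 had 0.45. Other solute carriers of the SLC families with A-numbered symbols had a median of -0.01 over 172 genes, with 3 higher and 0 lower among the 96 above background on at least 1 array.

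**Figure D1:**
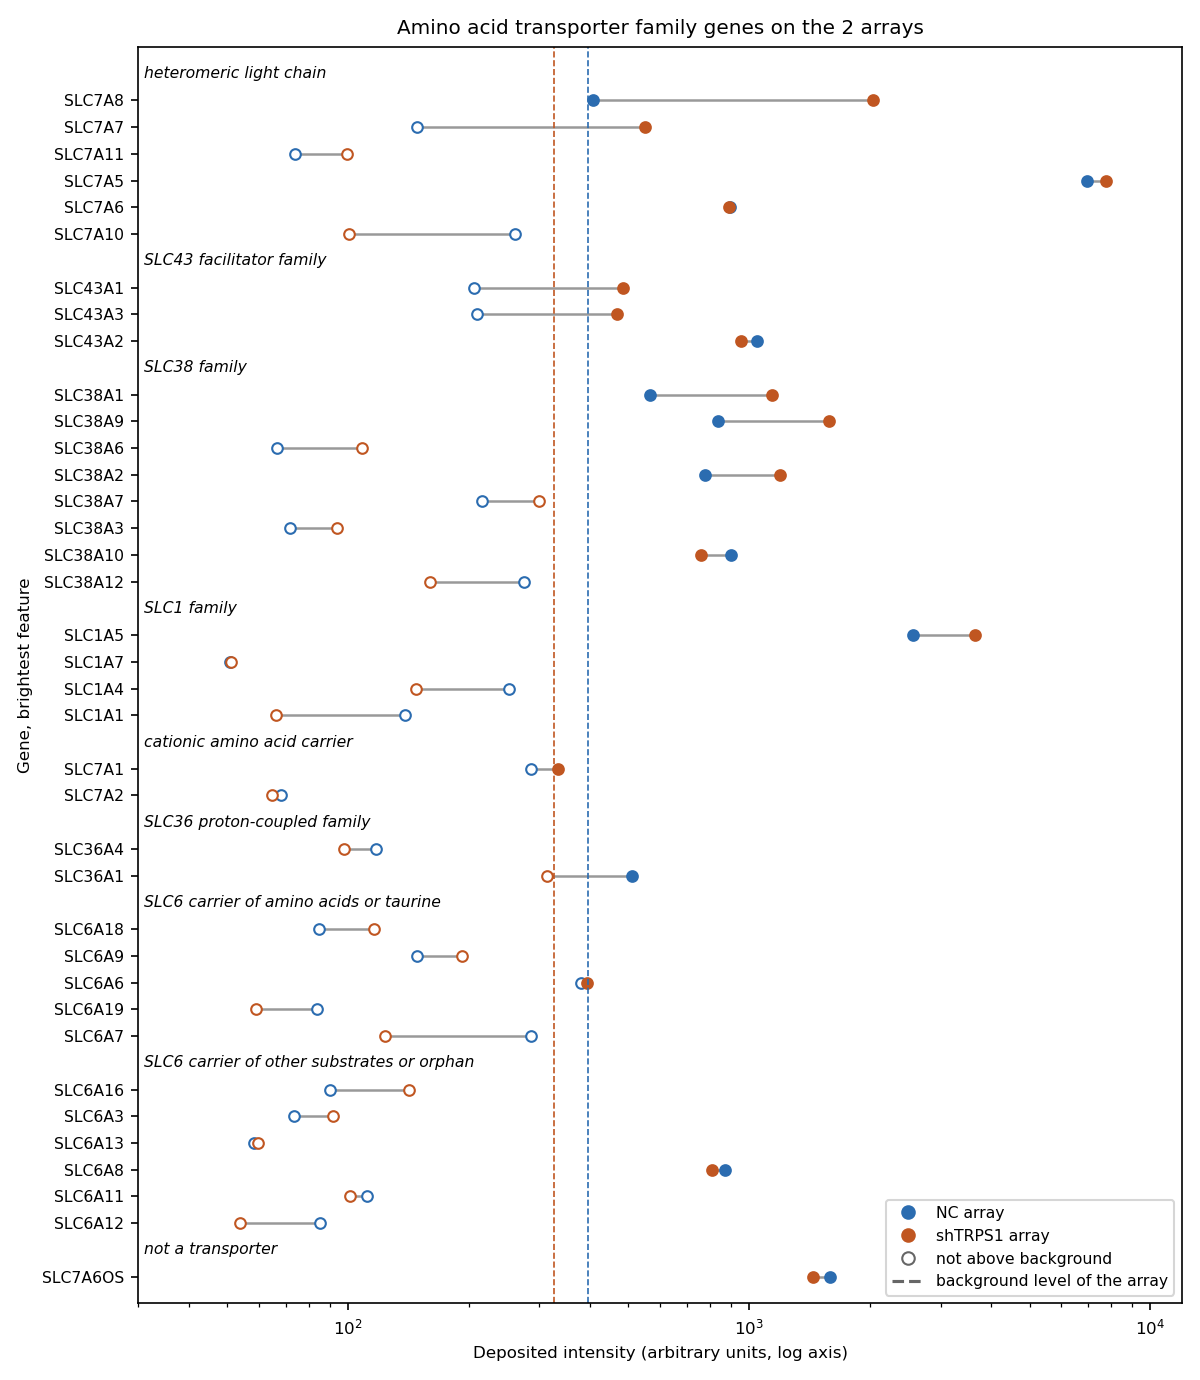
Deposited intensity of each of the 37 transporter family genes (brightest feature) in the NC array (blue) and the shTRPS1 array (orange) on a log axis, grouped by role, with open circles for values not above the background level of their array (dashed lines, 397 in NC and 325 in shTRPS1). SLC7A8 moves from 408, just above background, to 2036, while SLC7A5, SLC7A6 and SLC43A2 have nearly the same value on both arrays, and 20 genes are open on both sides. Intensities of different genes come from different probes and are not to be compared with each other.

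The promoters of 4 of the 5 genes with higher intensity are shown because their letters were searched for the motifs of factors linked to this study or to amino acid supply. RefSeq (GRCh38.p14) gave promoter windows, from 250 bases before to 50 bases after an annotated start, for 30 of the 37 genes, and 11 genes had several starts. Each line below runs 5′ to 3′ and stops 10 bases into the transcript, and capitals mark motif matches. The window holding a CACGTG or TGATGNAA match was chosen for each gene, and which start these cells use is not known.
SLC7A8, light chain LAT2, chr14:23154384-23154643, minus strand: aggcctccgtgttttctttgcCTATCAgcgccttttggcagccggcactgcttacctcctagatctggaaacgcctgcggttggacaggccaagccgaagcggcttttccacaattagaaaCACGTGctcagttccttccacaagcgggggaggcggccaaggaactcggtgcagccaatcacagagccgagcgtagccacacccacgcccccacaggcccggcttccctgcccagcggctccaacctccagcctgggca
SLC7A7, light chain y+LAT1, chr14:22815862-22816121, minus strand: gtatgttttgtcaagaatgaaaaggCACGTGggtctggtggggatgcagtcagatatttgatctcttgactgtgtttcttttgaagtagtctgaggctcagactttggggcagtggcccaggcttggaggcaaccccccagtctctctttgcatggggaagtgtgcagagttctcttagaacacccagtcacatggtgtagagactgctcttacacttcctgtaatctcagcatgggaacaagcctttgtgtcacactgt
SLC43A1, facilitator LAT3, chr11:57515693-57515952, minus strand: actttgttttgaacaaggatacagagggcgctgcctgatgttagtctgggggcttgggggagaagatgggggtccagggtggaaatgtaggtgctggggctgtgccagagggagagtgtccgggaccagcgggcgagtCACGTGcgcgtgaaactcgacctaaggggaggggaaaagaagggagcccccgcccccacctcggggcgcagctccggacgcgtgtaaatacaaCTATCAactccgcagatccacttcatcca
SLC38A1, sodium-coupled carrier SNAT1, chr12:46266507-46266766, minus strand: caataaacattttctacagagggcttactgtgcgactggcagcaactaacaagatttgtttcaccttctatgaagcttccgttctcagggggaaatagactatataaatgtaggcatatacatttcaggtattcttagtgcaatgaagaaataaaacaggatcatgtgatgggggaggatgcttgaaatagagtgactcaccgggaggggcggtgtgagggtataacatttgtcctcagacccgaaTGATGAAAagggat

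The E-box CACGTG, a palindrome that reads the same on both strands and is bound by MYC and related factors, was in 9 of the 47 member windows (19.1%) and in 9.45% of 13399 windows of all measured genes. SLC7A8, SLC7A7, SLC43A1 and SLC7A5 each had it, and so did SLC1A5, SLC1A7, SLC36A1, SLC38A7 and SLC6A16. A gene with several windows had more chances of a match, for any motif. The genes with higher intensity held 11 of the 47 windows. SLC7A8, SLC7A7, SLC43A1, SLC1A5, SLC36A1 and SLC38A7 each also had a window without the E-box. SLC36A1 differed by -0.70, and the other genes with the motif had positive differences, from 0.01 in SLC1A7 to 2.32 in SLC7A8. SLC1A7, SLC38A7 and SLC6A16 were below background on both arrays. A part of the motif in these differences was not tested. GATA hexamers, meaning A or T, then GATA, then A or G, counted on both strands, were in 10 member windows (21.3%) and 16.3% of windows of measured genes. SLC7A8, SLC7A7 and SLC43A1 had them, as did SLC38A2 and SLC38A9, and also SLC36A4, SLC38A7, SLC6A13 and SLC6A19. In SLC7A7 the match lies in the window of another start than the one printed above. TGATGNAA, the composite site of ATF4 and CEBP factors, was in 4 member windows (8.51%) and 2.1% of windows of measured genes, on either strand. The 4 genes were SLC38A1, SLC1A5, SLC7A1 and SLC1A4, whose differences were 1.01, 0.51, 0.23 and -0.78. A match describes letters in a window, not binding, and windows of 1 gene can overlap.

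Among the light chains, SLC7A8 and SLC7A7 were higher in shTRPS1 while SLC7A5 and SLC7A6 had almost the same intensity on both arrays. SLC7A8 encodes LAT2, an exchanger of large and small neutral amino acids that pairs with the SLC3A2 heavy chain. Its feature NM_012244 read 408 in NC, just above that array's background level of 397, and 2036 in shTRPS1. The difference was 4.99-fold, or 2.32 on the log2 scale. It was the largest upward among 5829 genes with both arrays above background, a filter that SLC7A8 passed narrowly. Among the 6949 genes above background on at least 1 array it ranked 8 from the top. Both ranks are by upward difference only. The 1814 genes with a mean log2 intensity of 9 to 10 had an SD of 0.51 and a central 95% that ended at 1.04, so SLC7A8 lay outside the spread of genes of like signal.

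SLC7A7 encodes y+LAT1, the exchanger that releases cationic amino acids in return for neutral ones and is mutated in lysinuric protein intolerance. It read 149 in NC, below background, and 550 in shTRPS1, so it was at least 1.38-fold higher, with a measured difference of 1.89.

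SLC7A5, the leucine exchanger LAT1, read 6937 and 7762, a difference of 0.16. The 614 genes with a mean log2 intensity of 12 to 13 had an SD of 0.37, so this difference was smaller than their spread. SLC7A6, y+LAT2 and the closest relative in function to y+LAT1, read 898 and 892, a difference of -0.01 with both arrays well above background. SLC7A11, the cystine and glutamate exchanger xCT, read 73.8 and 99.4, and SLC7A10, the small neutral exchanger Asc-1, read 261 and 100; all these values were not above background, so no fold is given. The heavy chains SLC3A1 and SLC3A2 are not analysed here, so the other subunit of these heterodimers has no value.

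**Figure D2:**
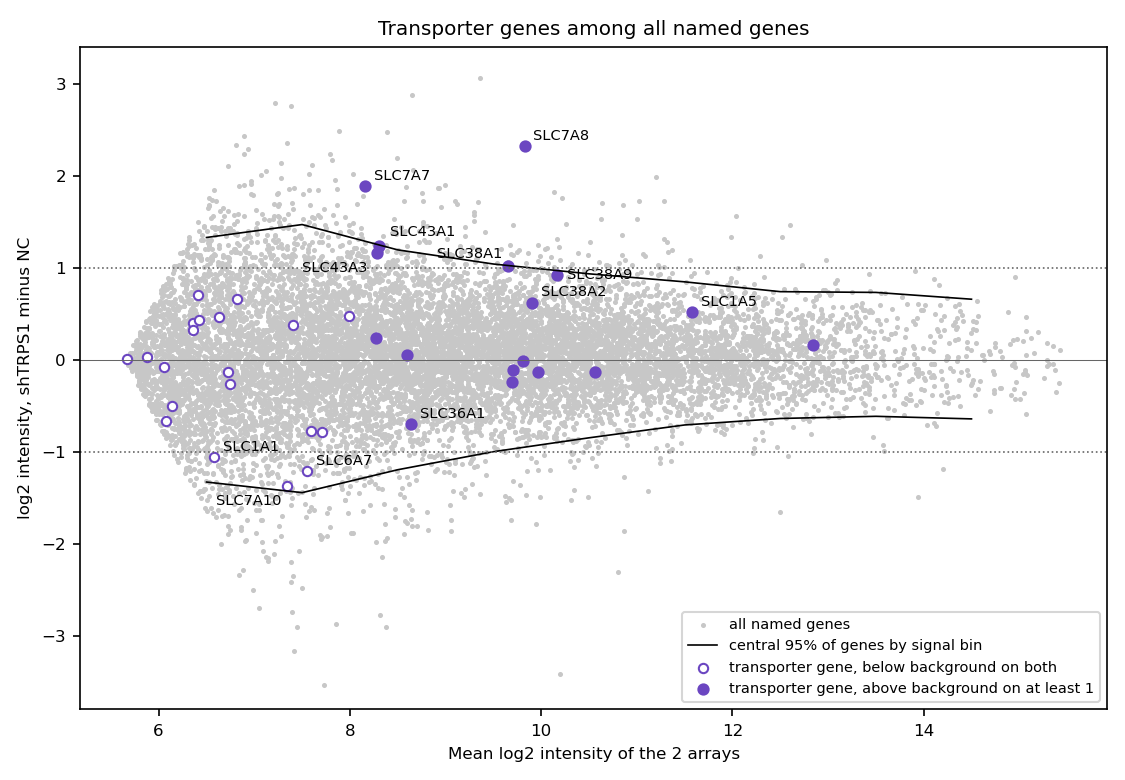
Difference in log2 intensity (shTRPS1 minus NC) against the mean log2 intensity of the 2 arrays, for all named genes (grey), with black lines for the central 95% of genes per bin of 1 log2 unit and dotted lines at 2-fold. SLC7A8 at 2.32 stands above the upper line, SLC38A1 at 1.01 and SLC38A9 at 0.92 lie along it, and SLC7A7, SLC43A1 and SLC43A3 are drawn at their measured differences although their NC values were below background, so that only a lower bound is known. Transporter genes are purple, and open where below background on both arrays.

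The SLC43 family, sodium-independent facilitators, was measured in full. SLC43A1 encodes LAT3, a facilitator for branched-chain amino acids and phenylalanine, and read 206 in NC and 485 in shTRPS1. SLC43A3, which transports purine nucleobases rather than amino acids, read 209 and 467. Both NC values were below background, so SLC43A1 was at least 1.22-fold and SLC43A3 at least 1.18-fold higher, with measured differences of 1.23 and 1.16. SLC43A2, the related facilitator LAT4, was above background on both arrays at 1047 and 953, a difference of -0.14.

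In the SLC38 family the difference was positive for 6 of 8 genes, beside 6177 of 11564 over all genes, with a median of 0.55. The count of 6 was the same after median-centring, quantile normalization and lowess correction, but these moved the values too little to turn a sign. The smallest of the 6, SLC38A3 at 0.40, became 0.35, 0.42 and 0.41, so the unchanged count adds nothing. Among the 6, SLC38A3, SLC38A6 and SLC38A7 were below background on both arrays, so nothing is read from their sign. The family's 4 genes above background were so on both arrays, with SLC38A1, SLC38A9 and SLC38A2 positive and SLC38A10 negative. SLC38A1, the sodium-coupled glutamine carrier SNAT1, read 566 and 1142 and was 2.02-fold higher, a difference of 1.01. This lay just past the 2-fold line, and fell under it after each of the 3 rescalings, at 0.97, 0.94 and 0.94. SLC38A9, the lysosomal arginine sensor, read 834 and 1582, a difference of 0.92 just short of the line. Both genes lay close to the upper edge of the central 95% of their signal bins, at 1.04 and 0.93.

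SLC38A2, the sodium-coupled carrier SNAT2 whose messenger is known to rise when amino acids run short, read 775 and 1192, a difference of 0.62 and so 1.54-fold. SLC38A10, a less studied relative, was the only member with 2 features. Its feature NM_001037984 read 901 and 759, and NM_138570 read 382 and 371. The features differed by -0.25 and -0.04, both less than the spread of genes of like signal. SLC38A7, a lysosomal glutamine exporter, read 215 and 298. SLC38A3, the glutamine carrier SNAT3, read 71.4 and 94.0, SLC38A6 read 66.6 and 108, and SLC38A12 (known before as TMEM104) read 275 and 160. None of these last 4 exceeded background on either array.

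The SLC1 family held 1 gene above background. SLC1A5, the neutral amino acid exchanger ASCT2 and a main route for glutamine into tumour cells, read 2563 and 3660. It was 1.43-fold higher, a difference of 0.51, where genes of like signal had an SD of 0.40. SLC1A4, the related exchanger ASCT1, read 252 and 147, SLC1A1, the glutamate transporter EAAT3, 138 and 66.3, and SLC1A7, a retinal glutamate transporter, 50.8 and 51.0. These 3 were below background on both arrays, so no fold is given, also for SLC1A1.

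The cationic amino acid carriers were dim. SLC7A1, the arginine and lysine carrier CAT1, read 285 and 335, and only the second value exceeded its background level, by little. SLC7A2, a relative of CAT1, read 68.1 and 64.5. Of the proton-coupled family, SLC36A1, which exports small amino acids from lysosomes, read 510 in NC and 313 in shTRPS1, the second below background, so that it was at least 1.57-fold lower. Its measured difference was -0.70, inside the central 95% of genes of like signal, and it was the one member above background in NC alone. SLC36A4, of the same family, read 117 and 97.6.

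The SLC6 family, sodium- and chloride-coupled carriers best known from nerve endings, had 11 measured genes, of which 2 were above background on at least 1 array. SLC6A8, the creatine transporter, read 871 and 806, a difference of -0.11. SLC6A6, the taurine transporter, read 380 and 395, with only the second above background. The proline transporter SLC6A7 read 286 and 123, the glycine transporter SLC6A9 149 and 193, and SLC6A19, the epithelial neutral amino acid carrier B0AT1, 83.7 and 59.1. SLC6A18, SLC6A16 (an orphan), the dopamine transporter SLC6A3, the GABA transporters SLC6A11 and SLC6A13 and the betaine carrier SLC6A12 all read between 53.8 and 142 on both arrays. Of the 9 SLC6 genes below background only SLC6A7 differed by 2-fold. SLC7A6OS entered by its symbol alone: it lies opposite SLC7A6 on the genome and is not a transporter. It read 1589 and 1443, a difference of -0.14. The labels do not say whether the probes tell the strands of SLC7A6 and SLC7A6OS apart.

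Position on the genome, which the choice by symbol did not use, was looked at after the values were seen. With at most 30 protein-coding genes between them, 10 pairs of members were found, which held 17 of the 37 members, among them all 5 with higher intensity and 12 others. SLC7A7 and SLC7A8 are both on chromosome 14 with 16 protein-coding genes between them, of which 12 were measured. Those 12 had a median difference of 0.24, from -0.94 in C14orf93 to 0.75 in AJUBA. None of the 9 above background was higher or lower by 2-fold, beside 3.78% higher and 2.37% lower over all genes. With so few genes nothing is read from that count. SLC43A3 and SLC43A1 flank a single gene on chromosome 11, RTN4RL2, which read 124 and 67.5, below background on both arrays. SLC38A1 and SLC38A2 are direct neighbours on chromosome 12. SLC6A7 and SLC36A1, with 21 genes between them on chromosome 5, differed by -1.22 and -0.70, the first below background on both arrays. SLC6A11 and SLC6A6, with 24 genes between them on chromosome 3, differed by -0.14 and 0.06. SLC6A3, 4 genes from SLC6A18, was below background on both arrays. Among other direct neighbours, SLC6A12 with SLC6A13 and SLC6A18 with SLC6A19 were below background on both arrays, and SLC7A6 and SLC7A6OS differed by -0.01 and -0.14. The order of genes comes from GRCh38.p14 and the differences from 1 array a group, so these pairs are described without a test.

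**Figure D3:**
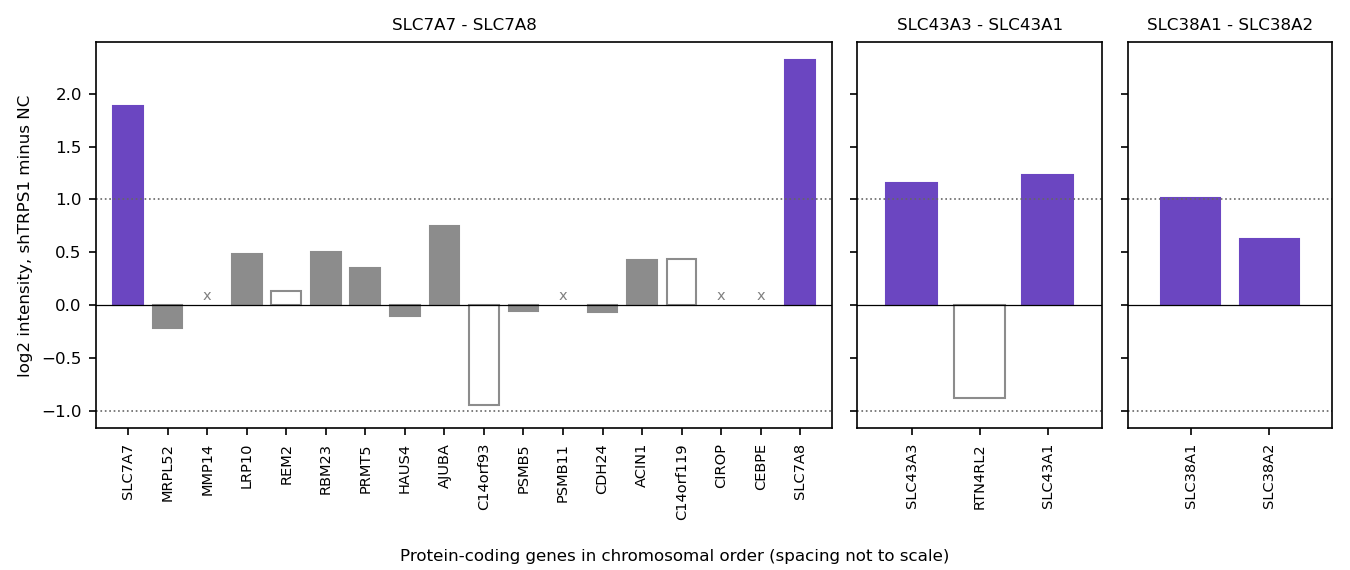
Difference in log2 intensity (shTRPS1 minus NC) of the members (purple) and of the protein-coding genes between them (grey), in chromosomal order with spacing not to scale; open bars were below background on both arrays, x marks genes without a value, and dotted lines mark 2-fold. SLC7A7 at 1.89 and SLC7A8 at 2.32 stand at the ends of a stretch in which none of the 12 measured genes reached 2-fold. With no filter, 4.71% of all genes were higher and 3.8% lower by as much, so nothing is read from this. RTN4RL2 between SLC43A3 and SLC43A1, at -0.88, was below background on both arrays.

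Genes that sense or use amino acids were described beside the transporters. The integrated stress response with its ATF4 targets is a programme that cells start when amino acids are scarce. In its list 26 of 32 measured genes had a positive difference, beside 6177 of 11564 over all genes. Among the 26, CTH, EIF2AK3, EIF2AK4, GDF15 and VLDLR were below background on both arrays, so nothing is read from their sign. The list's median was 0.50, against 0.05 over all genes. Of its 27 genes above background on at least 1 array 4 were higher and 0 lower, beside 3.78% and 2.37% over all genes. With both arrays above background 3 of 25 were higher, beside 1.39% over all genes, and the list's median was 0.42. ATF4, the transcription factor of this response, read 2066 and 4377 by its brighter feature, a difference of 1.08, and 117 and 355 by the other, of which only the last is above background. EIF2AK1, the haem-regulated kinase that triggers the response, read 892 and 1993 and was 2.23-fold higher. PPP1R15A, which ends it, read 623 and 1391 and was 2.23-fold higher as well, and EIF2AK2, the kinase for double-stranded RNA, was at least 1.07-fold higher. Of the targets named whatever their values, ASNS, asparagine synthetase, differed by 0.05, DDIT3 by 0.02 and TRIB3 by 0.34. SESN2, a leucine sensor that is also an ATF4 target, differed by 0.66, and CHAC1 is not analysed here.

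The 24 cytosolic aminoacyl-tRNA synthetase genes had a median of 0.15. EPRS1, which charges glutamate and proline, was at least 1.44-fold higher. It was the only gene counted of 22 above background on at least 1 array, beside 3.78% higher over all genes. The lysosomal sensing and mTORC1 list had a median of -0.01 over 34 genes. LAMTOR4, a subunit of the lysosomal scaffold that recruits mTORC1, read 8796 and 4268 and was 2.06-fold lower. It was the only gene counted among 28 above background on at least 1 array, beside 2.37% lower over all genes. For the lists that follow, the shares over all genes are the same, 3.78% higher and 2.37% lower. Enzymes of serine, glycine and sulphur amino acids had a median of 0.28 over 21 genes and of 0.43 over the 17 above background, of which none was counted. Enzymes of glutamine, glutamate, aspartate and proline had a median of -0.06 over 25 genes, with GFPT1, the first enzyme of hexosamine synthesis, at 173 in NC and 389 in shTRPS1; its bright value did not exceed the NC background level, so no fold is given. Branched-chain and aromatic amino acid enzymes had a median of 0.14 over 16 genes and no gene counted.

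Carriers of amino acids outside the described families, in mitochondria, vesicles and lysosomes, had a median of -0.05 over 20 genes, with none counted among 11 above background. Accessory proteins and ubiquitin ligases of the transporters had a median of -0.02 over 13 genes and of -0.12 over the 7 above background, of which none was counted. Among 19 transcription factors described for transporter genes the median was 0.24. Of the 15 above background on at least 1 array, ATF4 and ATF3 were counted as higher, beside 3.78% over all genes. ATF3 passed the filter only through its shTRPS1 value. With both arrays above background 1 of 12 was higher, beside 1.39% over all genes. ATF3, an early stress factor, was at least 1.39-fold higher. MYC, which is known to act on SLC7A5 and SLC1A5, read 4546 and 7762, a difference of 0.77.

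**Figure D4:**
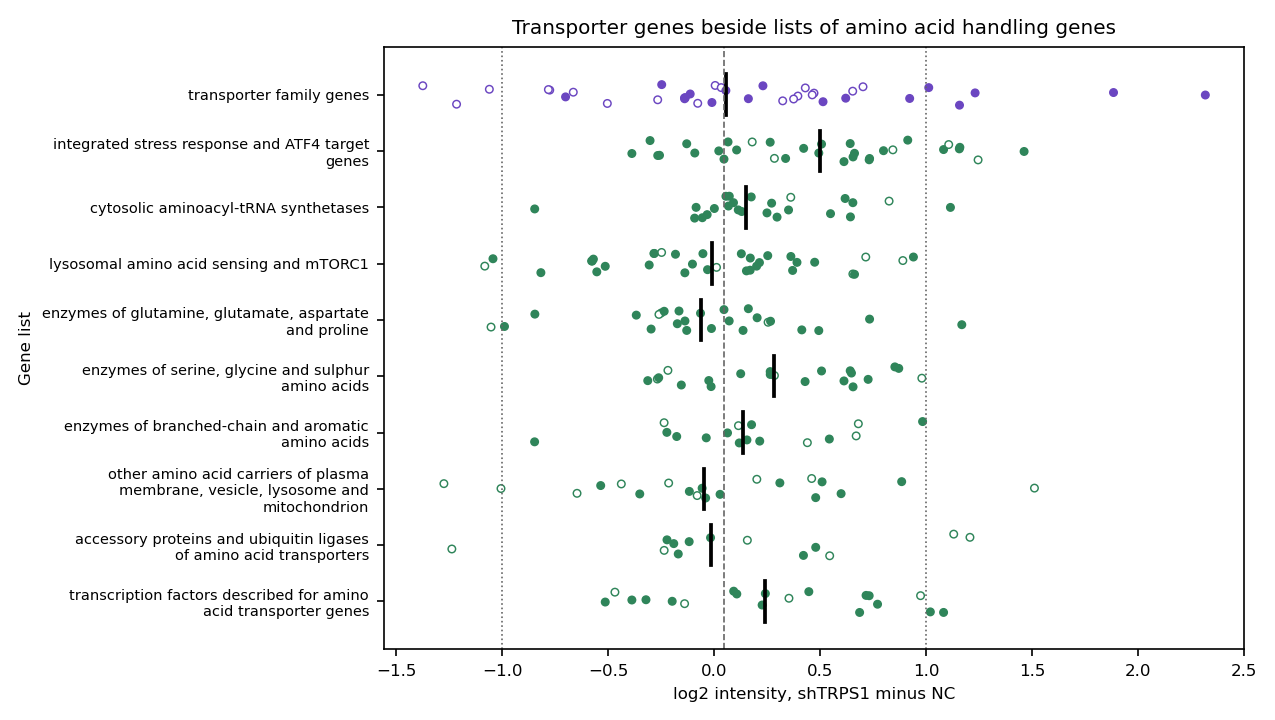
Difference in log2 intensity (shTRPS1 minus NC) of each measured gene in the transporter families (purple) and in 9 lists of genes that handle amino acids (green), filled where above background on at least 1 array, with a black bar at each list's median, a dashed line at the median over all genes (0.05) and dotted lines at 2-fold. The transporter median of 0.06 lies on the line of all genes, with SLC7A8 and SLC7A7 as the 2 points farthest to the right, while the stress response list has its median at 0.50; a gene can belong to several lists.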

How the data were processed

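Total RNA of T47D cells was converted to cDNA, labelled with Cy3 and hybridised to NimbleGen arrays of the human genome in 1 colour, per the labels' protocols, with 1 array for NC and 1 for shTRPS1. The authors deposited 1 intensity per transcript accession on a linear scale (50.0 to 62667), and the submitters' processing notes name RMA, with its version, its steps and the genome build not given in the sources used here. Log2 was taken of the deposited intensities. No intensity was under 50, and the sources used here do not say how dimmer transcripts were treated. A second table has 8 sample columns that match no label; only its 18881 feature accessions were used.

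Features received current symbols through RefSeq accessions (12596) or the platform annotation (2 more), 16375 stayed unnamed, and the brightest feature by mean log2 intensity stood for a gene. Folds with 1 dim array are lower bounds against that array's background level. All measured members are reported. TRPS1, ATF4, ASNS, DDIT3, TRIB3, CHAC1, SESN2 and MYC were named whatever their values, and other genes when counted as at least 2-fold apart, up to 4 a direction per list; neighbouring genes and other examples were chosen after their values were seen. Members and lists were chosen with earlier results of these data known. Alternatives were 3 rescalings (median-centring, quantile normalization, lowess with span 0.4), other summaries of features, other background filters and thresholds of 1.5-fold and 3-fold. The counting rule was run on simulated arrays with large planted changes in bright features and little noise. That run checks the code only and gives no error rate for these data. Python 3.11.15, numpy 2.4.6, pandas 2.3.3, statsmodels 0.14.6 and matplotlib 3.10.9 were used.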

Additional observations from a re-analysis of the deposited data

How the results depend on the processing

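The count of 5 members at least 2-fold higher became 4 after median-centring, quantile normalization and lowess correction, since SLC38A1 fell to 0.97, 0.94 and 0.94. It was 2 with both arrays above background, 2 at 3-fold, 7 at 1.5-fold and 0 over the 7 members with features in the second table, which holds none of the 5. The count of 0 lower became 1 at 1.5-fold (SLC36A1) and 3 without a background filter (SLC7A10, SLC6A7 and SLC1A1), and stayed 0 in the other alternatives run. The median of 0.06 over 37 members became 0.16 when a mean was taken. It was 0.23 over the 17 above background on at least 1 array and 0.16 over the 11 above it on both. Over all genes these 2 filters gave medians of 0.08 and 0.04. The member median lay between -0.04 and 0.07 in the other alternatives. SLC7A8 ranged from 2.25 to 2.32 over its alternatives, SLC7A7 from 1.83 to 1.89 and TRPS1 from -0.34 to -0.27. The sign turned under a rescaling for 3 members, SLC1A7, SLC6A13 and SLC6A6, each with a difference under 0.1. No paired analysis was possible because each group has 1 array and no replicate number. Signal over background limits 20 of the 37 members, whose differences have no order.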
